A study of Homo sapiens with 16 samples.

Results

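The genes described here are 6 cadherins and 1 immunoglobulin-type adhesion molecule, CDH6, CDH16, CDH4, CDH11, CDH13, CDH3 and CADM1, followed through every library of an RNA sequencing study of kidney cancer cells. They were taken by name from the exon count tables, 7 of the 60606 gene names counted. The names were chosen with earlier results of these data in view, and which comparison they were chosen on is not recorded, so the members' changes below are descriptions and not independent evidence. The study compared 786-O and A498, established human kidney cancer cell lines, with and without SETD2, a histone methyltransferase gene that is often mutated in clear cell renal carcinoma. In 786-O, cells that were wild type for SETD2 (WT) and cells labelled as knocked out and SETD2 null (KO) were each given DMSO, the solvent, or 100 nM A1331852, an inhibitor of the survival protein BCL-XL, for 72 hours, with 3 libraries for each of the 4 groups. In A498, untreated SETD2 deficient cells were compared with cells into which SETD2 had been added back, with 2 libraries for each group. Whether the KO cells are 1 clone, and whether the libraries of a group came from separate cultures, is not given in the sources used here.

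Classical cadherins are calcium-dependent adhesion receptors that hold cells together by binding the same or a related cadherin on the neighbouring cell, while their tails bind catenins that link to actin. Tubular epithelium of the kidney is known for an unusual set, in which N-cadherin (CDH2) and cadherin-6 (CDH6) stand beside the kidney-specific cadherin-16 (CDH16). CDH6 and CDH11 are type II cadherins, the latter best known from osteoblasts and mesenchyme. CDH4 (R-cadherin, first described in retina) and CDH3 (P-cadherin) are type I cadherins. CDH16 has a short tail and is related to CDH17, CDH13 (T-cadherin) is held in the membrane by a lipid anchor and has no tail, and CADM1 is a nectin-like molecule outside the cadherin family that binds other CADM1 molecules.

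In the coordinates of the count tables (GRCh38), CDH6 lies on chromosome 5 from 31193686 to 31329146 and CADM1 on chromosome 11 from 115169218 to 115504957. CDH4 lies on chromosome 20 from 61252261 to 61940617, with 18 exons counted. The other 4 members lie on chromosome 16: CDH11 from 64943753 to 65126112, CDH16 from 66908122 to 66918917, CDH3 from 68636189 to 68727468 and CDH13 from 82626965 to 83800640. CDH4 had the widest difference between WT and KO cells, and its upstream sequences from the RefSeq promoter table (GRCh38) are shown for that reason. The table matched 1 of the 7 members by symbol, with 2 CDH4 starts, and the 250 bases before each are printed from 5′ to 3′ on the plus strand. Capitals mark CANNTG, the E-box motif, which reads the same way on both strands.

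CDH4 upstream of the start at 61499421 (chr20:61499171-61499420): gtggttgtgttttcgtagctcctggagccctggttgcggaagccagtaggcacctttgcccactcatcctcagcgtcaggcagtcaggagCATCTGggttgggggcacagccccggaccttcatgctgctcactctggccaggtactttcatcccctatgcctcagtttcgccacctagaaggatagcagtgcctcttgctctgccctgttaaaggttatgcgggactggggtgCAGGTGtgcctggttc
CDH4 upstream of the start at 61599761 (chr20:61599511-61599760): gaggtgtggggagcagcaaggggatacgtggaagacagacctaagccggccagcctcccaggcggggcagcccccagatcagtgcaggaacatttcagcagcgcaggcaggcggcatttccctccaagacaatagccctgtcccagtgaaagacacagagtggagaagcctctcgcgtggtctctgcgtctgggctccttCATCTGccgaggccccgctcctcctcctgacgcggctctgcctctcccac

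The start at 61599761 is the first base of an exon in the count tables, and that at 61499421 is not. Both starts lie inside the gene as counted, whose first exon starts at 61252261. The bases before that first exon are not shown. The first window holds 2 E-boxes, 1 of them CAGGTG or CACCTG, the form bound by SNAI-family repressors and a subset of the CANNTG matches. The second window holds 1 E-box and none of that form. Of 35116 windows of this length in the table, 61.8% hold CANNTG and 17.5% hold CAGGTG or CACCTG. CG dinucleotides number 6 in the first window and 12 in the second, beside a median of 11 over all windows.

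Total counts ran from 14172118 to 36037616 a library. The labels put DMSO replicates 1 and 2 in batch 2, DMSO replicate 3 and all A1331852 libraries in batch 1, and A498 in batch 3, so each A1331852 comparison has 1 DMSO library per genotype within its own batch. SETD2 transcripts were present in every library: 63.4 to 73.4 CPM (counts scaled to library size with TMM factors) in WT DMSO, 29.3 to 31.2 in KO DMSO, 62.8 to 70.1 in WT A1331852 and 29.2 to 52.2 in KO A1331852. In A498 the SETD2 count did not separate the labels, with 40.6 and 58.5 CPM in the deficient and 44.0 and 52.8 in the addback libraries (log2 difference 0.00 ± 0.17, edgeR adjusted p = 0.991). Renal markers (PAX8, PAX2, CA9, KRT8, KRT18 and VIM) summed to 3705 to 9302 CPM in every library, although CA9, a hypoxia-induced enzyme of clear cell carcinoma, was at 0 in both WT groups. Summed leukocyte markers stayed at or under 2.35 CPM and endothelial markers at or under 0.419 CPM. Fibroblast markers summed to 4.02 to 14.95 CPM in 786-O and 43.4 to 65.7 in A498, and neural markers to 9.98 to 24.0 and 35.0 to 77.5. The fibroblast sum was lowest in KO A1331852 (4.02 to 4.50 CPM, DCN at 0 as in every 786-O group but WT DMSO) and was 13.8 to 14.95 in WT DMSO, and its part in the members' levels was not tested.

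Per unit of transcript length, CDH6 was the most abundant of the 7 in 5 of the 6 groups. In WT DMSO cells its mean was 131.8 TPM (counts scaled to exon length and library size; 85.0 to 219 over 3 libraries), followed by CADM1 at 60.4 TPM and CDH16 at 45.6 TPM, whose libraries overlapped. CDH11, CDH13, CDH3 and CDH4 were all under 1 TPM there, from 0.375 down to 0.00588. The order changed in KO cells under A1331852, where CADM1 (7.80 TPM), CDH4 (7.11 TPM) and CDH16 (5.00 TPM) overlapped below CDH6 (64.7 TPM). In A498 addback cells CADM1 came first with 33.3 TPM and CDH6 next with 19.6, whereas in A498 deficient cells CDH6 led with 45.6 TPM against 15.9 for CADM1.

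Within the summed TPM of 22 cadherin genes (the 6 cadherin members and 16 others), 2 genes made up most of the transcripts. CDH2 held a mean 43.4% and CDH6 36.5% in WT DMSO cells, with ranges of 26.1 to 52.9% and 29.4 to 49.1% over the 3 libraries. CDH16 held 12.4% there, 8.43% in KO DMSO cells, 12.4% in WT A1331852 cells and 2.02% in KO A1331852 cells. CDH6 held 43.7% in KO DMSO and 25.6% in KO A1331852 cells, where CDH2 stood at 60.1%. CDH4 held 0.00204% in WT DMSO, 0.713% in KO DMSO and 2.84% in KO A1331852. In A498, CDH6 held 10.5% in addback and 23.1% in deficient cells, and CDH11 0.385% and 2.29%. A share also moves when the other genes of the pool move. CDH2 itself was called in none of the 7 comparisons run with edgeR, with 0.15 ± 0.17 (log2 fold change ± SE, edgeR) between A1331852 and DMSO in KO cells.

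**Figure D1:**
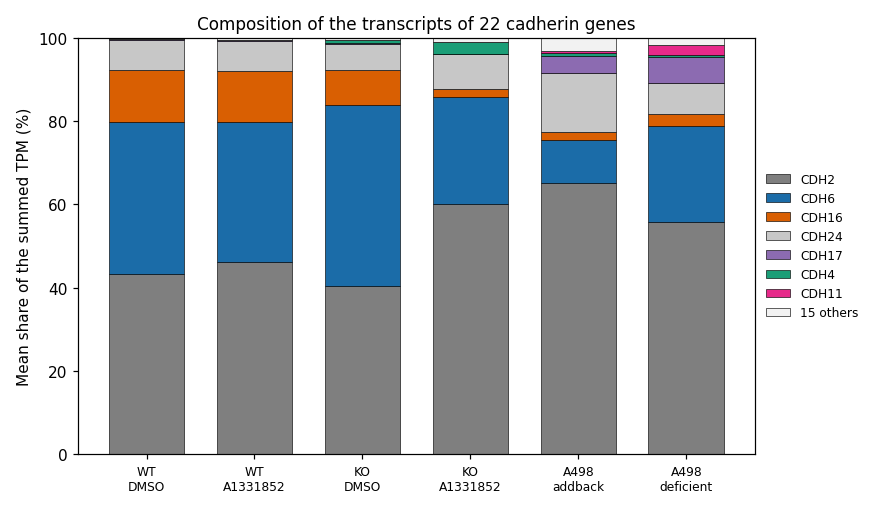
Stacked bars of the mean share (%) of the summed TPM of 22 cadherin genes in each of the 6 groups, 3 libraries a group in 786-O (WT and KO, DMSO or A1331852) and 2 in A498. CDH2 and CDH6 fill most of each bar, CDH16 is widest in both WT groups and in KO DMSO, and CDH4 shows as a visible band in KO A1331852, at 2.84%.

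Differences were tested gene by gene with edgeR over all genes that passed a filter on low counts, and a gene is called when its Benjamini-Hochberg adjusted p is under 0.05. In 786-O, 6 members passed the filter (CDH3 did not), in A498 6 passed (CDH13 did not), and in the fit of all 16 libraries all 7 passed. Between KO and WT cells in DMSO, 3 of 6 members were called, where 18.5% of 16260 genes tested were called. CDH4 was higher and CADM1 and CDH11 lower, 1 and 2 members beside 8.29% and 10.2% of all genes. Under A1331852, 4 of 6 were called between KO and WT beside 28.2% of all genes, 1 higher (13.2% of all genes) and 3 lower (15% of all genes), with CDH16 added to the lower ones. Groups did not overlap for 3 members in DMSO, beside 31% of all genes, and for 4 under A1331852, beside 34.7%. A1331852 against DMSO called 0 of 6 in WT cells with edgeR, beside 0.141% of all genes (0.0369% higher and 0.105% lower), although 5 of 6 had an unadjusted p under 0.05 and DESeq2 called 3. The WT groups overlapped for all 6 tested, beside 22% of all genes without overlap. In KO cells the drug comparison called 5 of 6 beside 13.5% of all genes, CDH13 and CDH4 higher (2 members, 6.46% of all genes) and CDH16, CADM1 and CDH6 lower (3 members, 7.08%). Those same 5 had groups that did not overlap, beside 33.3%. The difference between the drug responses of the genotypes, the interaction, was called for 1 of 6, CDH16, beside 0.295% of all genes (0.203% higher and 0.0923% lower). In A498, deficient against addback called 5 of 6 beside 30.2% of 15424 genes, 4 higher (15.1%) and CADM1 lower (15.1%). The difference between the lines was called for 4 of 7 beside 13.2% of 17868 genes. It was taken as KO against WT in 786-O under DMSO minus deficient against addback in A498. That difference was above 0 for CDH4 (6.12% of all genes) and below 0 for CDH11, CADM1 and CDH16 (7.1%). Because the genes were picked with such results known, nothing is read from these shares, and comparisons that share a control group repeat its libraries. The median log2 fold change of the members was -0.56 between KO and WT in DMSO and -1.71 under A1331852, beside -0.02 and -0.01 over all genes tested.

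**Figure D2:**
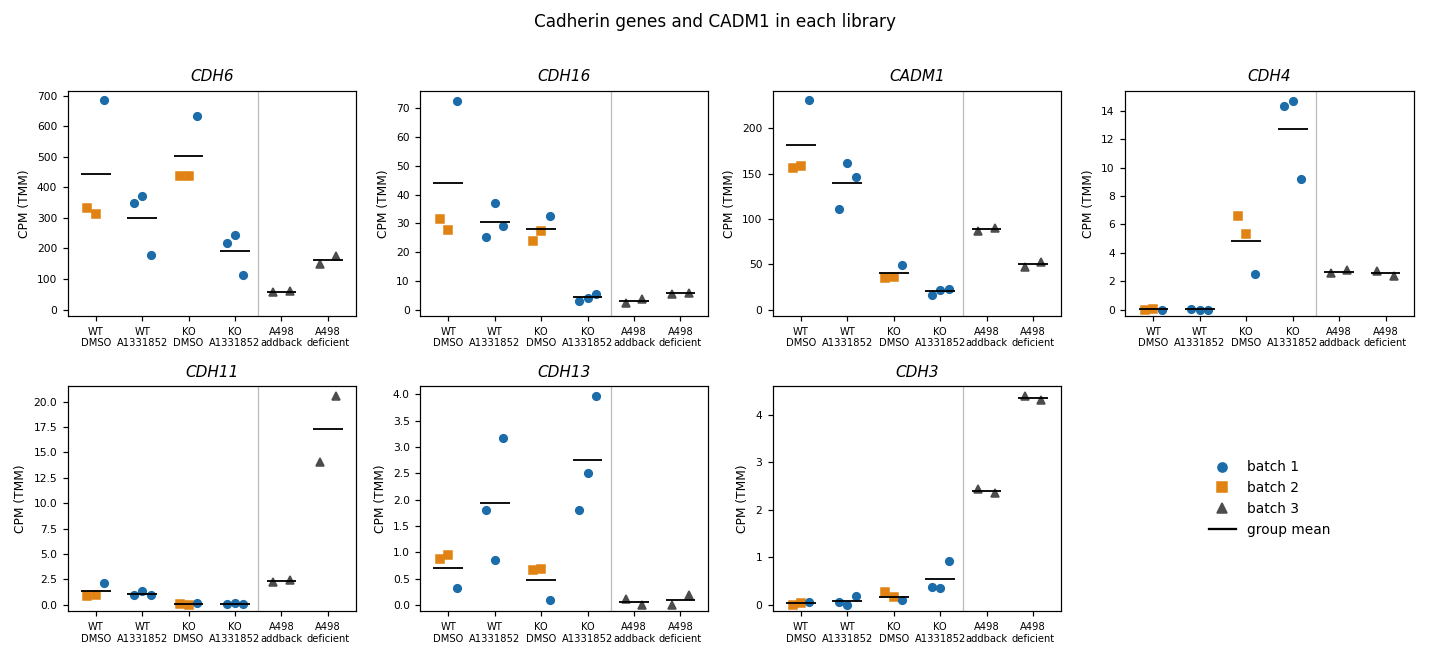
CPM of each member (vertical axis, linear, starting at 0) in each library of the 6 groups. Points are libraries, shaped and coloured by batch, and bars are group means; CDH4 sits at or near 0 in both WT groups and between 2.50 and 14.7 in KO cells, and the batch 1 DMSO library stands above both batch 2 libraries for CDH6, CDH16 and CADM1.

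CDH6, the most abundant cadherin member, was lower with A1331852 in KO cells and differed little by genotype in DMSO. In DMSO the WT libraries (replicates 1 to 3) held 332, 314 and 686 CPM and the KO libraries 439, 438 and 634. Replicate 3 of each genotype, the batch 1 library, was the high one, 2.12 times the batch 2 mean in WT and 1.45 times in KO, and the groups overlapped. The fitted difference between KO and WT was 0.25 ± 0.29, and the direction differed between batches, since KO was higher in batch 2 (0.46, adjusted p = 9.42e-09 in that batch alone) and lower in the 1 pair of batch 1. Under A1331852 the values were 348, 372 and 179.9 CPM in WT and 219, 244 and 112 in KO, with replicate 3 low in both. That difference between KO and WT was -0.64 ± 0.29 (edgeR adjusted p = 0.128). With replicate number as a block within treatment it was -0.65 with adjusted p = 0.00219, and without WT A1331852 replicate 3 it was -0.90 with adjusted p = 0.0134. Against DMSO, CDH6 fell by 1.94 ± 0.36 on the log2 scale in KO cells (adjusted p = 0.00582), all 3 A1331852 libraries lying below all 3 DMSO libraries. Within batch 1 alone, where KO cells have 1 DMSO library, the change was -1.75 with adjusted p = 0.13. The corresponding value in WT cells was -1.05 ± 0.34 (adjusted p = 0.234). In bulk RNA, fewer cells expressing a gene and less RNA per cell cannot be told apart, for this and every gene below.

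CDH16, the kidney-specific cadherin, was the member whose response to A1331852 differed between the genotypes. In DMSO the libraries held 31.6, 27.8 and 72.7 CPM in WT and 23.8, 27.4 and 32.6 in KO. The groups overlapped, and WT replicate 3 stood at 2.45 times the mean of its batch 2 partners. With A1331852, WT libraries held 25.2, 37.0 and 29.2 CPM and KO libraries 3.12, 4.15 and 5.42. Every treated KO library was thus below every other 786-O library, and KO cells under the drug were at the level of A498, where CDH16 was 2.43 and 3.56 CPM in addback and 5.47 and 5.73 in deficient libraries. In KO cells CDH16 fell by 3.33 ± 0.29 on the log2 scale (edgeR adjusted p = 2.93e-04), and the change was -2.97 with adjusted p = 0.0123 within batch 1 alone. In WT cells the value was -1.01 ± 0.26 (adjusted p = 0.153). The interaction was -2.32 ± 0.33 (adjusted p = 0.0132), and it was called in 13 of 20 alternatives, with adjusted p between 3.9e-15 and 1. Within batch 1 alone it was -1.70 with adjusted p = 1. Leaving out 1 library ended the call in 5 cases: without KO A1331852 replicate 2 (adjusted p = 0.0669), WT DMSO replicate 1 (0.0817), WT DMSO replicate 2 (0.0754), KO DMSO replicate 1 (0.0675) or KO DMSO replicate 2 (0.0646), with values from -2.33 to -2.17. Between KO and WT the difference was -0.53 ± 0.22 in DMSO (adjusted p = 0.118) and -2.85 ± 0.25 under A1331852.

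**Figure D3:**
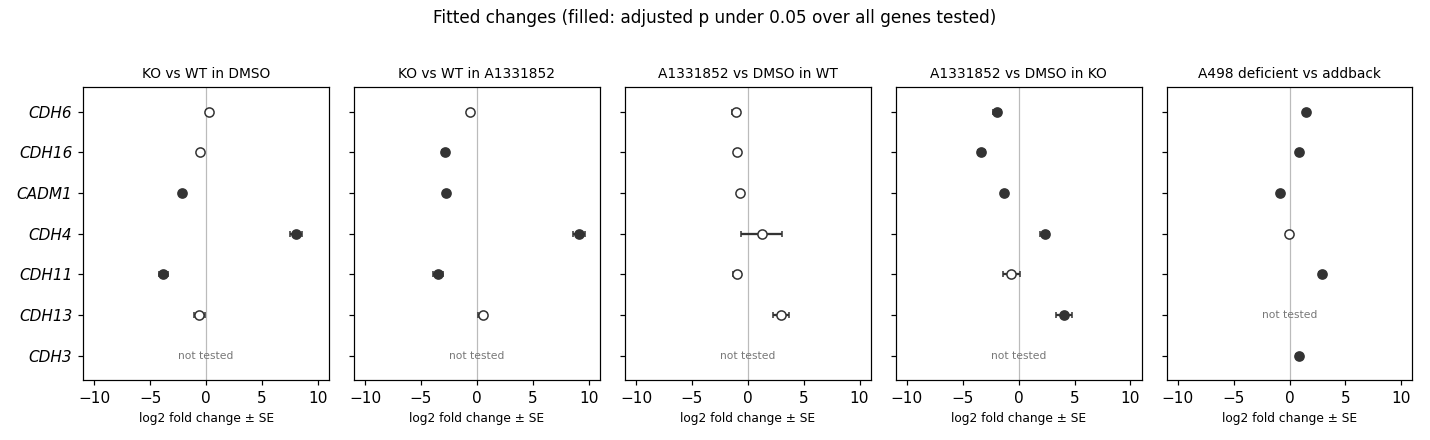
Fitted log2 fold changes of the 7 members with their standard errors, 1 panel for each of 5 comparisons, filled where the edgeR adjusted p over all genes tested is under 0.05. CDH4 lies far to the right between KO and WT cells at 8.06 and 9.11, CDH11 far to the left at -3.82 and -3.50, and CDH16 is furthest left with A1331852 in KO cells at -3.33.

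CDH4, R-cadherin, was all but uncounted in WT cells and present in every KO library. WT DMSO libraries held 0, 1 and 0 counts and WT A1331852 libraries 1, 0 and 0. KO DMSO libraries held 219, 164 and 52 counts (6.58, 5.34 and 2.50 CPM) and KO A1331852 libraries 271, 287 and 139 (14.3, 14.7 and 9.18 CPM). From 435 against 1 counts, the KO to WT ratio in DMSO was 402 (exact 95% interval 71.7 to 15900, counting error only). Leaving out WT DMSO replicate 1 gave 223. Leaving out WT DMSO replicate 2, the library with the single count, gave KO cells at least 84.7-fold more, taking 3 counts over the group as the floor. Under A1331852, 697 against 1 counts gave 767 (137 to 30340). That value was 465 when WT A1331852 replicate 2 was left out, and at least 178 when replicate 1, which held the count, was left out. The fitted log2 fold changes, 8.06 ± 0.56 and 9.11 ± 0.53, depend on the prior count at such low WT levels and give no bound. With A1331852, CDH4 rose in KO cells by 2.32 ± 0.43 (adjusted p = 0.00582), and the 3 treated libraries lay above the 3 DMSO libraries. That call rested on the batch 1 DMSO library: without KO DMSO replicate 3 it was 3.17 with adjusted p = 0.619, and within batch 1 alone 2.32 with adjusted p = 0.0902. In A498, where both groups expressed it, CDH4 was 2.54 and 2.77 CPM in addback and 2.73 and 2.38 in deficient libraries (-0.09 ± 0.27, adjusted p = 0.842).

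CDH11, the mesenchymal type II cadherin, was lower in KO than in WT 786-O cells and higher in deficient than in addback A498 cells. In 786-O its counts were low: 28, 25 and 34 in WT DMSO, 17, 31 and 16 in WT A1331852, 3, 1 and 3 in KO DMSO, and 1, 3 and 1 in KO A1331852. The groups of either treatment did not overlap, WT lying between 0.895 and 2.15 CPM and KO between 0.0325 and 0.154. By summed counts, WT was 13.5 times KO in DMSO (exact 95% interval 6.26 to 34.5) and 11.6 times under A1331852 (4.73 to 37.0), the latter 18.7 times without KO A1331852 replicate 2. Fitted differences between KO and WT were -3.82 ± 0.42 and -3.50 ± 0.46. The drug comparison gave -0.98 ± 0.39 in WT (adjusted p = 0.325) and -0.65 ± 0.74 in KO cells (adjusted p = 0.65). In A498, CDH11 was 2.22 and 2.41 CPM in addback and 14.1 and 20.5 CPM in deficient libraries, a rise of 2.87 ± 0.23 (adjusted p = 6.64e-07). The differences by SETD2 label therefore had opposite signs in the lines, and the difference between the lines was -6.71 ± 0.48 (adjusted p = 3.45e-07).

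CDH13, T-cadherin, was a low-count gene that was higher with A1331852 in KO cells. DMSO libraries held 27, 24 and 5 counts in WT (0.863, 0.944 and 0.316 CPM) and 22, 21 and 2 in KO (0.661, 0.683 and 0.0963 CPM), replicate 3 being the low one in both. A1331852 libraries held 1.81, 0.858 and 3.16 CPM in WT and 1.80, 2.51 and 3.96 CPM in KO. The WT groups overlapped and the KO groups did not. The rise in KO cells was 4.06 ± 0.73 (adjusted p = 0.00521), larger than the 5.74-fold difference of the group means since the batch term sets the treated libraries against the low batch 1 DMSO library. Without that library, KO DMSO replicate 3, it was 3.48 with adjusted p = 0.087, and within batch 1 alone 4.72 with adjusted p = 0.117. The WT value was 2.96 ± 0.73 (adjusted p = 0.147). Between KO and WT cells CDH13 was -0.59 ± 0.52 in DMSO (adjusted p = 0.488) and 0.52 ± 0.42 under A1331852 (adjusted p = 0.395). A498 libraries held 0 to 3 counts.

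CDH3, P-cadherin, was mainly an A498 transcript, at 2.43 and 2.35 CPM in addback and 4.39 and 4.31 in deficient libraries. The groups did not overlap and the difference was 0.83 ± 0.25 (adjusted p = 0.02), a call that was lost without addback replicate 1 (0.86, adjusted p = 0.114), without addback replicate 2 (0.80, adjusted p = 0.153) and with DESeq2 (0.84, adjusted p = 0.0978). In 786-O its counts failed the filter and were not tested, with 0, 1 and 1 in WT DMSO, 1, 0 and 3 in WT A1331852, 9, 5 and 2 in KO DMSO and 7, 7 and 14 in KO A1331852. By summed counts KO was 7.39 times WT in DMSO (exact 95% interval 1.74 to 66.2) and 7.70 times under A1331852 (2.70 to 30.2). Those ratios moved with single libraries, to 12 without WT DMSO replicate 3 and 4.10 without WT DMSO replicate 1, and to 21.6 without WT A1331852 replicate 3 and 4.67 without WT A1331852 replicate 2.

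CADM1, the nectin-like adhesion molecule, was lower in KO than in WT cells and in A498 libraries labelled deficient than in those labelled addback. WT DMSO libraries held 157, 159 and 231 CPM and KO DMSO libraries 35.0, 35.9 and 48.9, with replicate 3 the high one in both. WT A1331852 libraries held 111, 162 and 146 CPM and KO A1331852 libraries 16.2, 21.8 and 22.6. Every KO library lay below every WT library. The group means differed 4.56-fold in DMSO and 6.92-fold under A1331852, and the fitted differences were -2.19 ± 0.16 and -2.78 ± 0.16. With A1331852, CADM1 fell in KO cells (-1.33 ± 0.18, adjusted p = 0.00147, and -1.30 with adjusted p = 0.0799 within batch 1 alone), and was -0.73 ± 0.18 in WT cells (adjusted p = 0.147). In A498 it was 86.7 and 90.0 CPM in addback and 47.4 and 52.6 CPM in deficient libraries, a difference of -0.85 ± 0.13 (adjusted p = 2.71e-04). The difference between the lines was -1.37 ± 0.22 (adjusted p = 0.00104), with CADM1 lower in every KO and every deficient library than in any library it was compared with.

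A498 cells labelled deficient, which the SETD2 count did not set apart, had more CDH11, CDH6, CDH16 and CDH3 and less CADM1 than addback cells. CDH6 was 57.9 and 60.0 CPM in addback and 149.7 and 175 CPM in deficient libraries, a rise of 1.43 ± 0.13 (adjusted p = 2.34e-06). CDH16 rose by 0.87 ± 0.24 (adjusted p = 0.0147), a call that was lost without addback replicate 1 (0.63, adjusted p = 0.208) and with DESeq2 (0.88, adjusted p = 0.0564). Marker sums moved with these groups: renal markers were 3705 to 3713 CPM in addback and 5412 to 5698 in deficient libraries, neural markers 35.0 to 41.02 and 55.6 to 77.5, and fibroblast markers 43.4 to 47.6 and 49.4 to 65.7. All 4 fibroblast markers were counted in addback and all but LUM in deficient libraries, and 3 of 4 neural markers, all but SOX10, in both. The part of these cell types in the members' levels was not tested. Of all genes tested, 66.1% had groups that did not overlap in this comparison of 2 against 2, as did 5 of the 6 members. For CDH16 the difference between the lines was -1.43 ± 0.38 (adjusted p = 0.0206), lost without WT DMSO replicate 3 (-1.09, adjusted p = 0.0722), KO DMSO replicate 3 (-1.09, 0.0676), A498 deficient replicate 1 (-1.47, 0.0567), deficient replicate 2 (-1.40, 0.0767) or addback replicate 1 (-1.18, 0.137). For CDH6 it was -1.21 ± 0.42 (adjusted p = 0.0711). For CDH4 it was 8.08 ± 0.68 (adjusted p = 1.91e-06), 7.31 without WT DMSO replicate 1 and 9.67 without WT DMSO replicate 2. Line and batch 3 cannot be told apart in levels, whereas each difference by SETD2 label was taken within a line.

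Among 7 tested transcription factor genes of 10 known to act on cadherin genes, 4 rose and none fell in A498 deficient cells, from 2 to 5 called over the alternatives. They were PAX8 (0.67 ± 0.12), a renal lineage factor, SNAI2 (0.79 ± 0.17) and SNAI1 (0.59 ± 0.15), repressors of cadherin genes, and FOXC2 (0.87 ± 0.26). In 786-O, 3 of 7 were called between KO and WT in DMSO, 1 higher and 2 lower (1 to 6 over the alternatives, 5 with the block), and 4 of 7 under A1331852, 2 higher and 2 lower (2 to 5). SNAI2 held 16.6, 20.2 and 27.6 CPM in WT DMSO and 3.07, 2.67 and 2.50 in KO DMSO (-2.93 ± 0.27, adjusted p = 3.27e-05). Its difference therefore had opposite signs in the lines, and the test between lines gave -3.74 ± 0.38 (adjusted p = 1.2e-05). With A1331852, SNAI2 was 26.3, 25.3 and 13.3 CPM in WT and 8.61, 8.04 and 7.00 in KO cells, a rise in KO cells of 1.30 ± 0.34 (adjusted p = 0.0265). PAX2, a renal lineage factor like PAX8, was lower in KO than in WT cells both in DMSO (-0.65 ± 0.15) and under A1331852 (-0.99 ± 0.15). SNAI1 was higher in both (0.64 ± 0.19 and 0.55 ± 0.19, the latter with edgeR adjusted p = 0.0495). With A1331852 in KO cells 4 of 7 were called, FOXC2, SNAI2 and ZEB1 higher and PAX2 lower (edgeR adjusted p = 0.0498), with 0 to 5 called over the alternatives. The part of any of these factors in the members' levels was not tested. Beside this list and those below, the shares of all genes called were 18.5% between KO and WT in DMSO and 28.2% under A1331852. They were 13.5% with A1331852 in KO cells and 30.2% in A498.

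**Figure D4:**
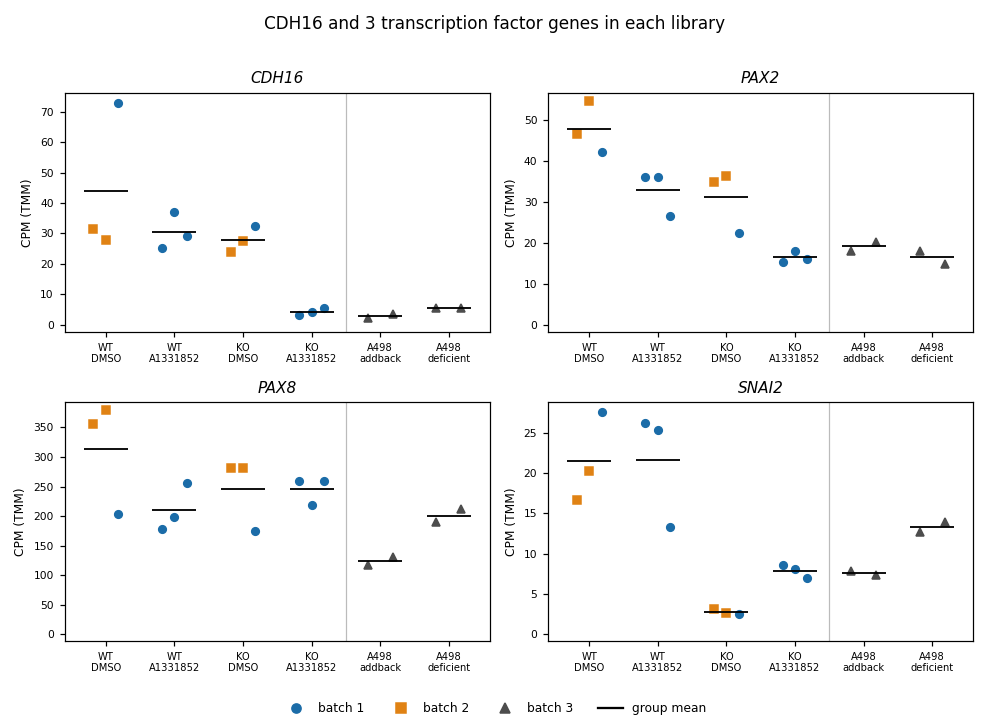
CPM (linear axes from 0) of CDH16 and of the transcription factor genes PAX2, PAX8 and SNAI2 in each library, by group and batch, with bars at group means. KO A1331852 libraries lie below every DMSO library of 786-O for CDH16 (3.12 to 5.42) and PAX2 (15.3 to 18.1), among them for PAX8 (218 to 259), and between the KO DMSO and WT DMSO libraries for SNAI2 (7.00 to 8.61).

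The cytoplasmic partners of CADM1, which tie its tail to the cortex and to signalling, included genes that were higher in KO cells while CADM1 was lower. Of 7, 3 rose and none fell in DMSO (3 to 6 called over the alternatives, 6 with the block within treatment, 4 higher and 2 lower). Under A1331852 4 rose and 2 fell (4 to 6 called over the alternatives). EPB41L3, a cytoskeletal adaptor of the FERM type, held 4, 2 and 1 counts in WT DMSO and 127, 101 and 61 in KO DMSO (5.07 ± 0.38). TIAM1, an activator of RAC, was 0.863, 0.590 and 0.443 CPM in WT DMSO and 4.12, 3.90 and 3.71 in KO DMSO (2.58 ± 0.40). MPP2, a scaffold protein, rose by 1.62 ± 0.24. In A498 deficient cells 2 of the 7 rose, MPP1 (0.76 ± 0.14) and CASK (0.69 ± 0.17), and 2 fell, MPP2 (-1.37 ± 0.15) and TIAM1 (-1.52 ± 0.27), while EPB41L3 was at 94.6 to 126 CPM in all 4 libraries. Among 6 tested relatives of CADM1 in the CADM and nectin family, NECTIN3 was lower in KO than in WT cells (-0.77 ± 0.13 in both treatments), the 1 called in DMSO, and CADM4 was the other of 2 called under A1331852 (-0.94 ± 0.30). In A498 deficient cells 4 of the 6 were called with edgeR and 3 with DESeq2 (2 to 4 over the alternatives). PVR was higher (0.61 ± 0.13) and CADM4, NECTIN2 (-0.69 ± 0.13) and NECTIN4 (-1.20 ± 0.44, edgeR adjusted p = 0.0499) lower. CADM4 fell there from 27.0 and 25.9 CPM to 3.69 and 2.51 CPM (-3.12 ± 0.20).

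Of 16 other classical and atypical cadherins, only 4 passed the filter in 786-O and 1 was called in DMSO (0 to 4 over the alternatives). This was CDH17, the closest relative of CDH16, higher in KO cells (1.64 ± 0.39, from counts of 3 to 14 in WT and 19 to 42 in KO libraries). In CPM the groups overlapped, at 0.118 to 0.886 in WT and 0.571 to 2.02 in KO libraries. Between KO and WT under A1331852, 0 of the 4 were called (0 to 2 over the alternatives). The CDH17 value there had the opposite sign (-1.32 ± 0.53, edgeR adjusted p = 0.0859). CDH17 also fell with A1331852 in KO cells, to 2, 2 and 4 counts (-3.91 ± 0.51, adjusted p = 0.00103), and its interaction was -2.95 ± 0.66 (adjusted p = 0.0922). Of those that failed the filter in 786-O, CDH7, CDH10, CDH12 and CDH18 had 0 counts in both WT groups. Their summed counts were 17, 6, 14 and 32 in KO DMSO and 16, 3, 1 and 7 in KO A1331852, and they were not tested. CDH19 had 0 in both WT groups and 1 in KO DMSO, and CDH9 had 0 in every group. CDH1, CDH5, CDH8, CDH15 and CDH22 had counts in WT DMSO, and CDH20 in WT A1331852. In A498, 4 of 6 tested were called, with CDH17 higher (0.91 ± 0.17) and CDH15 (-3.53 ± 0.46), CDH22 (-2.99 ± 0.69) and CDH24 (-0.62 ± 0.15) lower in deficient cells. Of 19 FAT, DCHS, CELSR, calsyntenin and other distant cadherins, 11 were tested in 786-O. Between KO and WT in DMSO 4 were called (3 to 8 over the alternatives), CDHR3 higher (1.10 ± 0.28) and CLSTN3 (-0.99 ± 0.13), CLSTN1 (-0.66 ± 0.11) and CDHR1 (-1.56 ± 0.28) lower. Under A1331852 the same 4 and FAT1 were called, 1 higher and 4 lower (2 to 6 over the alternatives), and CDHR1, FAT2 and FAT1 fell with A1331852 in KO cells (0 to 5 called over the alternatives). In A498, 3 of 11 were called (1 to 4), CELSR2 higher and CLSTN1 and FAT2 lower. Of 6 tested non-clustered protocadherins, 3 rose and none fell in KO cells in either treatment (3 to 5 called over the alternatives in DMSO, 2 to 6 under A1331852). PCDH17 was at 0 counts in all 6 WT libraries, and at 54, 48 and 15 in KO DMSO and 39, 62 and 32 in KO A1331852. PCDH1 went from 1 to 4 counts in WT libraries to 76, 61 and 25 in KO DMSO (4.97 ± 0.52), and PCDH11X from 0 to 3 in WT libraries to 20, 14 and 37 (3.20 ± 0.58). In A498, PCDH1 was higher in deficient cells with edgeR (0.51 ± 0.17, adjusted p = 0.036). It was 1 of 2 genes of this list called there, and DESeq2 called 0 (0 to 2 over the alternatives).

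The catenin and plaque genes that cadherin tails bind included both called and uncalled genes in each line. Of 14 tested in 786-O, 4 were called in DMSO beside 18.5% of all genes, 2 higher and 2 lower (1 to 11 over the alternatives, 7 with the block within treatment). Under A1331852 9 were called beside 28.2% of all genes, 2 higher and 7 lower (3 to 9 over the alternatives). CTNNB1, beta-catenin, lay between 293 and 409 CPM in all 12 libraries of 786-O (-0.28 ± 0.10 between KO and WT in DMSO, adjusted p = 0.0833). With the drug, its KO to WT difference was -0.31 ± 0.10 and was called (edgeR adjusted p = 0.0436). CTNNB1 was also called in A498, where deficient cells held less of it (-0.43 ± 0.12, edgeR adjusted p = 0.0119). LIMA1, an actin-binding protein at the junction, was 79.8, 80.2 and 102 CPM in KO DMSO and 163, 166 and 157 in KO A1331852 (0.82 ± 0.18, adjusted p = 0.0134). Of 12 tested in A498, 1 rose and 4 fell in deficient cells (2 to 8 called over the alternatives), PDLIM1 by 1.65 ± 0.12 upwards and JUP, plakoglobin, by -0.57 ± 0.15. In 786-O PDLIM1 was lower in KO than in WT cells (-0.58 ± 0.11 in DMSO and -0.53 ± 0.11 under A1331852). The test between lines gave -2.26 ± 0.17 for PDLIM1 (edgeR adjusted p = 6.04e-07). Of 8 tested proteases that cleave cadherins, 2 were lower between KO and WT in DMSO, NCSTN and ADAM15, and 2 under A1331852, NCSTN and MMP7. None was higher in either, and 1 to 5 were called over the alternatives in each. In A498 deficient cells 1 was called (1 to 4 over the alternatives), MMP7, which was higher (1.74 ± 0.15). With A1331852 in KO cells 2 fell and none rose (0 to 5 called over the alternatives). They were ADAM10 (-0.97 ± 0.16) and MMP7 (-5.52 ± 0.59, adjusted p = 4.87e-04), the latter from 13.04, 16.2 and 53.7 CPM to 2.17, 2.35 and 2.64. The fitted fall of MMP7 is larger than these libraries differ, since the batch term is shared with WT cells, where the batches lay further apart. In WT cells the drug value of MMP7 was -2.66 ± 0.48 (edgeR adjusted p = 0.0715). In WT DMSO MMP7 was 4.70, 4.37 and 90.5 CPM, so that batch 1 replicate 3 again stood above the batch 2 libraries, as it did for CDH6 and CDH16. The part of batch in those levels was not tested beyond the within-batch values above.

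Over the 12 libraries of 786-O, the genes whose log2 CPM ran closest to each member were sought among about 10600 tested genes, as a description that reflects mostly the group differences these libraries share. CDH4 ran closest to SERPINI1 (r = 0.98) and POU3F3 (r = 0.98), a POU-domain factor that was at 0.0393 CPM in WT DMSO and 7.42 in KO DMSO on average. CDH11 ran with PICALM and MAOB (both r = 0.99), CADM1 with RARRES2 and XPR1 (both r = 0.99), and CDH6 with KCNJ16, a potassium channel gene of the tubule (r = 0.97), and RHOB (r = 0.95). CDH16 ran with SEMA5B (r = 0.99) and FRAS1 (r = 0.98). SEMA5B averaged 42.5 CPM in WT DMSO, 30.8 in WT A1331852, 23.0 in KO DMSO and 1.09 in KO A1331852, the same order of groups as CDH16. CDH13 ran with INHBA (r = 0.94) and TCEA1 (r = 0.92). Spearman's rho was 0.876 or more for the other pairs, but 0.671 for CDH16 with FRAS1.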

How the data were processed

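Poly-A RNA of the 16 libraries was sequenced as 150 base pair paired reads on a NovaSeq instrument, per the labels' protocols. Per the file headers, the authors counted read pairs over exons by gene name with featureCounts 1.5.0-p3 against GENCODE 41 (GRCh38), with strand setting 2, and the deposited counts are raw and whole. MultiQC 1.7, STAR and DESeq2 are also named in the submitters' processing notes.

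From these counts, CPM with TMM factors over all 16 libraries and TPM with the deposited exon length were computed. edgeR 4.0.16 (R 4.3.3) gave quasi-likelihood F tests, with its filter on low counts (minimum count 10), a batch term in the 12 libraries of 786-O, A498 fitted apart, all 16 libraries for the difference between lines, with p-values adjusted by Benjamini-Hochberg across every gene in the fit. SE is the absolute log2 fold change divided by the square root of F. Ratios at low counts carry exact 95% binomial intervals or a floor of 3 counts, which cover counting error only. The scripts were tested on simulated data with 200 changed genes. Alternatives were RLE and upper-quartile factors, no filter, DESeq2 1.42.0, no batch term, single batches, a replicate block and each library left out. Both A1331852 libraries numbered 3 were also left out together, an alternative chosen after seeing the data.

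The members and the gene lists were chosen with earlier results of these data known. Some genes first placed in the list of transcription factors are not reported here, and its counts leave them out. From each list, up to 4 called genes with the smallest adjusted p in a comparison could be named, along with the 7 members and SETD2. For likeness, the 2 protein-coding genes with the highest Pearson r of log2 CPM (prior count 2) were taken among genes of at least 5 CPM in a group. CTNNB1 in both lines, POU3F3 and PAX8 in 786-O, EPB41L3 in A498 and JUP are named beyond that rule where they are shown without being called or for context. Same-numbered WT and KO libraries deviated together from their group means (correlations 0.569 to 0.765 in DMSO and 0.271 to 0.506 with A1331852, 3 pairs each). Unlike-numbered libraries 1 and 2 did so too, at 0.566 and 0.601 in DMSO and 0.130 and 0.222 with A1331852. Libraries numbered 3 correlated negatively with those numbered 1 and 2, and in DMSO number 3 is also batch 1. Deviations from a mean of 3 libraries cancel out, so these signs follow from the positive correlations among numbers 1 and 2. The positive sign between WT and KO libraries numbered 3 follows likewise. Whether the numbers pair single WT and KO libraries was therefore not settled, and the block within treatment serves as an alternative only. Libraries of a group may be technical replicates, and p-values then measure only the spread between these libraries.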

Additional observations from a re-analysis of the deposited data

Results flagged for a closer look

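The response of CDH16 to A1331852 differed between KO and WT cells by the interaction term (-2.32 on the log2 scale, edgeR), with KO libraries at 3.12 to 5.42 CPM under the drug and WT libraries at 25.2 to 37.0. That interaction was called in 13 of 20 alternatives, and not within batch 1 alone. The difference between KO and WT or deficient and addback cells differed between 786-O and A498 for 4 members by the test of the difference itself. For CDH4 the difference was 8.08, the KO and WT libraries of 786-O lying far apart and the A498 groups overlapping. For CDH11 it was -6.71, with opposite signs in the lines. For CADM1 it was -1.37, lower in the KO and in the deficient libraries, and more so in 786-O. For CDH16 it was -1.43, and the call was lost in 6 of 15 alternatives. Groups of 2 or 3 libraries were too small for a search for single libraries far from the others.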

How the results depend on the processing

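Over 614 alternative values of single members, 560 kept their direction and their side of the threshold, 24 passed it only in the alternative, 24 passed it only in the reported fit and 6 changed sign. With 3 libraries a group, and 2 in A498, the low counts of CDH4 in WT cells, of CDH11 and CDH3 in 786-O and of CDH13 limit their folds. Members called between KO and WT in DMSO were 3 and became 5 in batch 2 alone, and 3 in each fit with 1 library left out. Under A1331852, 4 ranged up to 6 (without the filter), being 5 with either replicate block, in the added alternative and without WT A1331852 replicate 3. Between lines 4 ranged from 3 to 5. For A1331852 in WT cells 0 became 4 without the low-count filter, 3 with DESeq2, 3 with the replicate block and 1 without both A1331852 libraries numbered 3 (the added alternative). For A1331852 in KO cells 5 became 1 in batch 1 alone, and 3 to 5 with 1 library left out, the lowest without KO DMSO replicate 3. For the interaction 1 became 2 without the filter, 2 with the replicate block, 2 in the added alternative, 0 without the batch term, 0 in batch 1 alone and 0 to 1 with 1 library left out. In A498 5 became 3 with DESeq2 and 3 to 5 with 1 library left out, the lowest without addback replicate 1. The sign changed in 6 cases, none of them called in either fit, and the cause was not tested. CDH11 with A1331852 in KO cells was 0.18 without the batch term. With 1 library left out, CDH4 with A1331852 in WT cells ranged from -0.77 (without WT A1331852 replicate 1) to 2.91, the CDH11 interaction from -0.31 (without KO A1331852 replicate 2) to 0.65, the CDH4 interaction from -0.60 (without WT DMSO replicate 2) to 3.11, CDH4 in A498 from -0.18 to 0.014 (without deficient replicate 2) and the CDH13 difference between lines from -4.70 to 2.78 (without deficient replicate 2). DMSO libraries did not pair with A1331852 libraries of the same number (correlations -0.0465 to 0.0542), and the block across treatments is therefore given only here. In the KO against WT comparisons the block within treatment changed no other call of a member than that of CDH6. Over all genes, calls between KO and WT in DMSO ranged from 1490 (no batch term) to 9276 (batch 2 alone) around 3001, being 4646 with the block within treatment, and under A1331852 from 2489 to 6460 around 4588. For A1331852 they ranged from 0 to 2831 around 23 in WT cells, from 85 to 5227 around 2201 in KO cells and from 0 to 929 around 48 for the interaction. In A498 they ranged from 2246 to 6272 around 4657, and between lines from 1067 to 2852 around 2362.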
